A study of Rattus norvegicus with 6 samples.

Results

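The MAP kinase phosphatases described here are the 10 catalytically active dual-specificity phosphatases with a MAP kinase-binding domain, Dusp1, Dusp2, Dusp4, Dusp5, Dusp6, Dusp7, Dusp8, Dusp9, Dusp10 and Dusp16. They were chosen by gene symbol, and each matched 1 gene identifier among the 38445 genes counted in the amygdala RNA-seq libraries. Adult male Sprague Dawley rats were given either saline (control) or ethanol at 1 g/kg as an intraperitoneal injection. The amygdala, with its central, medial and basolateral nuclei, was taken 1 h later from 6 rats in each group. Each library held the combined RNA of 2 rats, which gave 3 control and 3 ethanol libraries. Both groups shared the strain, the injection and the delay to dissection, and no uninjected group was analysed here, so the values compare ethanol with saline injection and not with the undisturbed state. Each library also averages several nuclei and cell types, so fewer cells of a type and less RNA per cell cannot be told apart.

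MAP kinases (ERK, JNK and p38) are switched on when an upstream kinase phosphorylates both a threonine and a tyrosine in their activation loop. The phosphatases of this family remove both phosphates and so end the signal. Several of their genes are themselves turned on by the kinase pathway they shut off, which makes them negative-feedback regulators, and in brain Dusp1, Dusp5 and Dusp6 are among the genes that neuronal activity and growth factors induce quickly. Dusp1 is also a classical target of the glucocorticoid receptor. By location and substrate, the family is usually divided into inducible nuclear enzymes (Dusp1, Dusp2, Dusp4 and Dusp5), cytoplasmic enzymes that prefer ERK (Dusp6, Dusp7 and Dusp9), and enzymes that prefer JNK and p38 (Dusp8, Dusp10 and Dusp16).

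The sequence just upstream of 3 of these genes is shown. Dusp1 and Dusp5 are shown for the motifs found there and Dusp6 as an activity-induced member whose window held none of them. They were picked after the motifs and the values in these libraries had been seen, and no relation between motifs and values was tested. RefSeq (build GRCr8) had a promoter for 9 of the 10 genes, and Dusp4 was the one without. The window searched was the 250 bases before the annotated start, on both strands. Capitals mark the cAMP response element half-site TGACG (in either orientation, read as CGTCA on the opposite strand), the full cAMP response element TGACGTCA, which contains a half-site on each strand, and the CArG box, the binding sequence of serum response factor. The windows are chr10:17184603-17184852 for Dusp1, chr1:262543524-262543773 for Dusp5 and chr7:35979354-35979603 for Dusp6, all on the plus strand.
Dusp1: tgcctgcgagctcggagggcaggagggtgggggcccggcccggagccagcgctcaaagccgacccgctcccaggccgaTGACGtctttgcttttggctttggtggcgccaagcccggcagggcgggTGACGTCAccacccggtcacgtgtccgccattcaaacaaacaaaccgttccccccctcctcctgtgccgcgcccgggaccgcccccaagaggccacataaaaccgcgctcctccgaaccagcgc
Dusp5: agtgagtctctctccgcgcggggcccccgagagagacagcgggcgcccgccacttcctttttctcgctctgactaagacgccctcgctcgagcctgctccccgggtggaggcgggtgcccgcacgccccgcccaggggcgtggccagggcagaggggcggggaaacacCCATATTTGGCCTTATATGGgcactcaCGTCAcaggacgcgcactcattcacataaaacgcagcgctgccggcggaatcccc
Dusp6: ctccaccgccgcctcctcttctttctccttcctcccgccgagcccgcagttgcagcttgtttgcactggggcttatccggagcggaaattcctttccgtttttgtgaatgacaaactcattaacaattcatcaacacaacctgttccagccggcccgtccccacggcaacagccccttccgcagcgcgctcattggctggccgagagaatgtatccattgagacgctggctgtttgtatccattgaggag
Dusp1 was the member with the full TGACGTCA element, at 124 to 117 bases before the start, and 1.59% of the 33469 promoters in the RefSeq table had it in a window of this length. A further half-site lay 172 to 168 bases before the Dusp1 start. The half-site occurred in 4 of the 9 promoters, those of Dusp1, Dusp2, Dusp5 and Dusp16, and in 18.2% of all promoters. Dusp5 had 2 CArG boxes side by side, from 82 to 63 bases before the start, and 1.5% of all promoters had at least 1. The Dusp6 window held neither element. The E-box CACGTG was present upstream of Dusp1 and Dusp2 and in 5.59% of all promoters. The hexamer TGTTCT, a half-site of the glucocorticoid receptor, was in none of the 9 windows and in 17.5% of all promoters. Sequence outside these 250 bases was not searched, so the windows do not show whether the genes have such sites elsewhere. A match describes the letters of the window, and the libraries do not show which factors bound there.

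The libraries held 62576504 to 70755739 counted reads. A count of 3, taken here as the floor of detection, corresponded to at most 0.0479 per 1000000 counted reads, before any TMM adjustment. The CPM given below are the reads of a gene scaled to a library of 1000000 reads, with the library sizes adjusted by the TMM method. All 10 phosphatases were above this floor in every library and passed the filter on low counts. This floor covers counting error only, whereas the intervals given for differences include the spread between libraries. Pairs of libraries within a group had chi-square values over degrees of freedom of 15.3 to 72.6, which is more spread than counting alone gives. Marker genes of both amygdala neuron types were present: summed markers of pallial glutamatergic neurons lay between 483 and 1016 CPM and those of striatal-type GABA neurons between 285 and 491 CPM. Choroid plexus markers stood apart between the groups, with summed levels of 795 to 1490 CPM in the control libraries and 101 to 737 CPM in the ethanol libraries, where ethanol 3 was the highest. All 9 of the choroid plexus markers tested were lower after ethanol by sign, 4 of them with an unadjusted p below 0.05 (edgeR), where 2.58% of all genes were lower with such a p. Markers of motile cilia and ependyma were also lower by sign in 7 of 7 cases, 3 with an unadjusted p below 0.05 and 3 with groups that did not overlap, and their sums were 68.0 to 84.1 CPM in controls and 52.2 to 70.0 CPM after ethanol. No matched marker of either list was at 0 in every library.

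The phosphatases were expressed at very different levels. For a comparison between genes, CPM were divided by the length of the counted exons in kilobases. Dusp8, a JNK and p38 phosphatase known for its high expression in brain, had the highest level, 35.2 ± 2.19 CPM per kb (SD, n = 6 libraries), and made up 40.3% of the summed level of the family (39.0% to 42.6% across libraries). Dusp7, a cytoplasmic ERK phosphatase, followed with 17.5 ± 0.979 CPM per kb (SD, n = 6). Dusp1 came next with 12.1 ± 2.06 CPM per kb (SD, n = 6), and its range over the libraries overlapped that of Dusp6, another cytoplasmic ERK phosphatase, with 9.51 ± 1.07 CPM per kb (SD, n = 6). Dusp4 (4.77 CPM per kb) and Dusp16 (3.30 CPM per kb) lay below these. Dusp5 and Dusp10, with means of 1.91 and 1.67 CPM per kb, overlapped in range. Dusp2, best known from activated lymphocytes, and Dusp9 were the lowest, with 0.932 and 0.447 CPM per kb. Apart from the pairs Dusp1 with Dusp6 and Dusp5 with Dusp10, neighbours in this order had ranges that did not overlap over the 6 libraries.

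**Figure D1:**
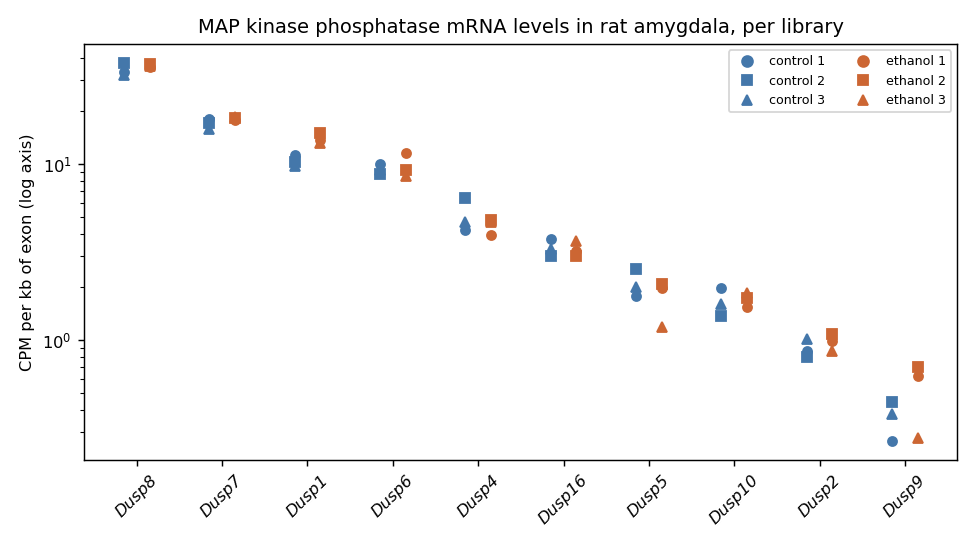
Level of each phosphatase in each library, in CPM per kb of counted exon on a log axis, ordered by mean level. Blue points are control and orange points ethanol libraries, with 1 marker shape for each replicate number. Levels ran from 35.2 CPM per kb for Dusp8 to 0.447 CPM per kb for Dusp9.

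As a class, the JNK and p38-selective enzymes held 46.0% of the summed family level per kb, the cytoplasmic ERK-selective enzymes 31.5% and the inducible nuclear enzymes 22.5%, and over the libraries these shares ranged from 44.5% to 47.5%, from 29.8% to 33.1% and from 21.2% to 24.6%. The summed level of the whole family was 85.1, 87.9 and 79.6 CPM per kb in the control libraries and 90.5, 92.7 and 88.7 CPM per kb in the ethanol libraries. The ethanol sums were all above the control sums, but the nearest values of the groups, 87.9 and 88.7, differed by less than the control SD of 4.24. These sums include Dusp1, at 11.2, 10.2 and 9.66 CPM per kb in controls and 13.6, 14.9 and 13.0 CPM per kb after ethanol. For each of the other members the groups overlapped, so the order of the sums is not a result about the family as a whole. For the inducible nuclear enzymes the sums were 18.0, 19.96 and 17.3 CPM per kb in controls and 20.4, 22.8 and 19.7 after ethanol, and the groups overlapped. The sums of the other classes overlapped as well. No test was made of these sums, because the members were chosen with earlier results known.

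Dusp1 was the member of the family whose level separated the groups. Dusp1, also called MKP-1, is a nuclear enzyme that acts on p38, JNK and ERK. The gene (NCBI gene 114856) lies on the plus strand of chromosome 10 of Rnor_6.0 from 16970642 to 16973425, with 4 exonic blocks and 1927 counted bases. Its level was 21.6, 19.7 and 18.6 CPM in the control libraries and 26.1, 28.7 and 25.1 CPM in the ethanol libraries, from 1180 to 1849 reads. Each ethanol library was thus above each control library. The group means were 19.98 ± 1.498 CPM in controls and 26.7 ± 1.85 CPM after ethanol (SD, n = 3 each), a difference of 1.33-fold with a 95% confidence interval of 1.17 to 1.53 (log2 fold change 0.42, standard error 0.08).

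In edgeR's quasi-likelihood test, Dusp1 had an unadjusted p of 0.00119, the 22nd smallest of 18141 genes, but its p adjusted over all genes by Benjamini-Hochberg was 0.818, which did not pass the threshold of 0.2. No gene passed in that fit (0% called), whose smallest adjusted p was 0.818, although 753 genes had an unadjusted p below 0.05. Dusp1 passed with DESeq2 (adjusted p = 0.0353) and with edgeR's likelihood ratio test (adjusted p = 0.0697), which called 0.408% and 0.424% of the genes. A 2-sided exact permutation test of the log2 CPM gave p = 0.1, the smallest that 3 libraries against 3 allow. Dusp1 was also among the genes that the study took up from these same libraries, so its place in the family is not independent evidence. The study listed Dusp1 as higher after ethanol in its own fit of these libraries, at its threshold of 0.2. It also reported a rise of Dusp1 mRNA by quantitative RT-PCR, a measurement outside these libraries. Of the ethanol libraries, ethanol 3 had the highest choroid plexus markers and the lowest Dusp1. Without it the log2 fold change of Dusp1 was 0.46 (adjusted p = 0.23, edgeR), in a fit that called 0.452% of the genes, and the part of the choroid plexus in the Dusp1 values was not tested.

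**Figure D2:**
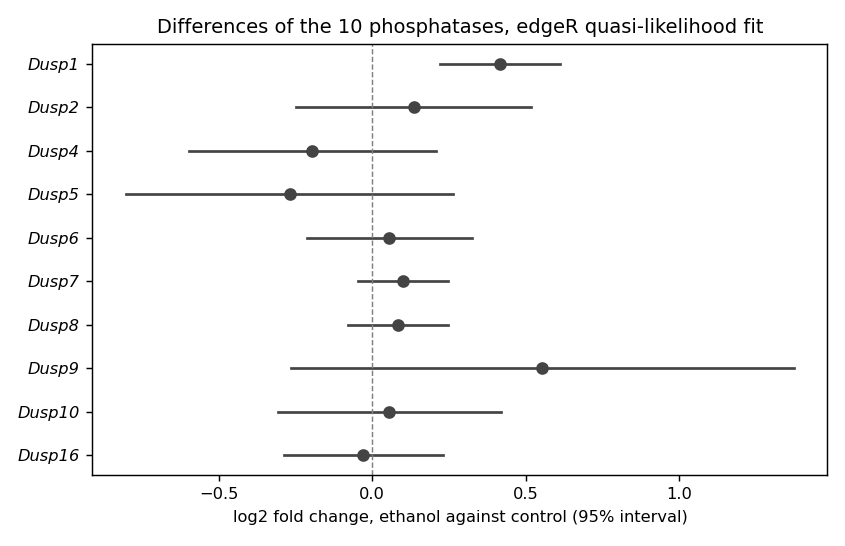
Log2 fold change of each phosphatase between the ethanol and control groups (points) with its 95% confidence interval (lines) from the edgeR quasi-likelihood fit, 3 libraries per group. The interval of Dusp1, 0.22 to 0.61, lay above 0, and the other 9 intervals included 0.

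Of the 10 phosphatases, 1 had an unadjusted p below 0.05, where 4.15% of all genes had one, and 1 had groups that did not overlap, where 8.85% of all genes had such groups (3.65% higher and 5.19% lower after ethanol). Both held for Dusp1, as they did for 3.48% of all genes. By sign, 7 were higher and 3 lower after ethanol. The median log2 fold change was 0.07 over the members and 0.01 over all genes tested. A count of 1 in 10 is close to these background shares.

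The groups overlapped for each of the other nuclear enzymes, and their intervals included 0. Dusp2 was measured at 1.41, 1.30 and 1.66 CPM in controls and 1.605, 1.77 and 1.41 CPM after ethanol, from about 100 reads per library (92 to 114), and the groups overlapped. Dusp4 (MKP-2), which acts on ERK and JNK, was at 4.97, 7.62 and 5.57 CPM in controls and 4.66, 5.67 and 5.53 CPM after ethanol. Control 2 was high for Dusp4 and the remaining 5 libraries lay close together, so that without control 2 the log2 fold change went from -0.20 to 0.0058. Dusp5, a nuclear phosphatase that acts on ERK alone, was at 4.27, 6.07 and 4.83 CPM in controls and 4.77, 4.99 and 2.84 CPM after ethanol. The fitted difference was -0.27 on the log2 scale (standard error 0.23). It was -0.05 without ethanol 3, the lowest library, and -0.11 without control 2, the highest. The interval of its log2 fold change was -0.80 to 0.26.

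Among the cytoplasmic ERK phosphatases, Dusp6 (MKP-3), a feedback inhibitor whose level follows ERK activity in many tissues, was at 27.5, 24.1 and 25.4 CPM in controls and 31.5, 25.3 and 23.4 CPM after ethanol. Ethanol 1 was the highest and ethanol 3 the lowest of the 6 libraries. The difference was 1.04-fold with a 95% confidence interval of 0.863 to 1.25, so a change of Dusp6 above 1.25-fold lay outside the interval. Dusp7 was steadier, with 56.1, 53.1 and 49.5 CPM in controls and 55.4, 56.9 and 57.9 CPM after ethanol, and control 1 was above ethanol 1. Its interval, 0.969 to 1.19-fold, was the narrowest of the family on the log2 scale. Dusp9 (MKP-4), known from placenta and kidney and encoded on the X chromosome, had few reads, from 45 to 117 per library. It was at 0.688, 1.14 and 0.978 CPM in controls and 1.605, 1.82 and 0.718 CPM after ethanol. Ethanol 1 and 2 were above all controls but ethanol 3 was below 2 of them, and the interval was wide, from 0.832 to 2.59-fold.

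The JNK and p38 phosphatases had group means close to each other. Dusp8 was at 78.8, 88.8 and 75.7 CPM in controls and 84.5, 87.9 and 85.7 CPM after ethanol, and the highest library was control 2. Its difference was 1.06-fold, with an interval of 0.948 to 1.19. Dusp10 (MKP-5) was at 5.31, 3.67 and 4.32 CPM in controls and 4.14, 4.66 and 5.01 CPM after ethanol. Dusp16 (MKP-7), which shuttles between nucleus and cytoplasm and acts on JNK, was at 18.3, 14.7 and 16.0 CPM in controls and 15.6, 14.6 and 17.9 CPM after ethanol. For both genes, control 1 and ethanol 3 were the highest libraries. The same libraries had the highest summed level of oligodendrocyte markers, 8377 and 9724 CPM against 3548 to 6020 CPM in the other 4, and the part of these cells in the Dusp10 and Dusp16 values was not tested.

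**Figure D3:**
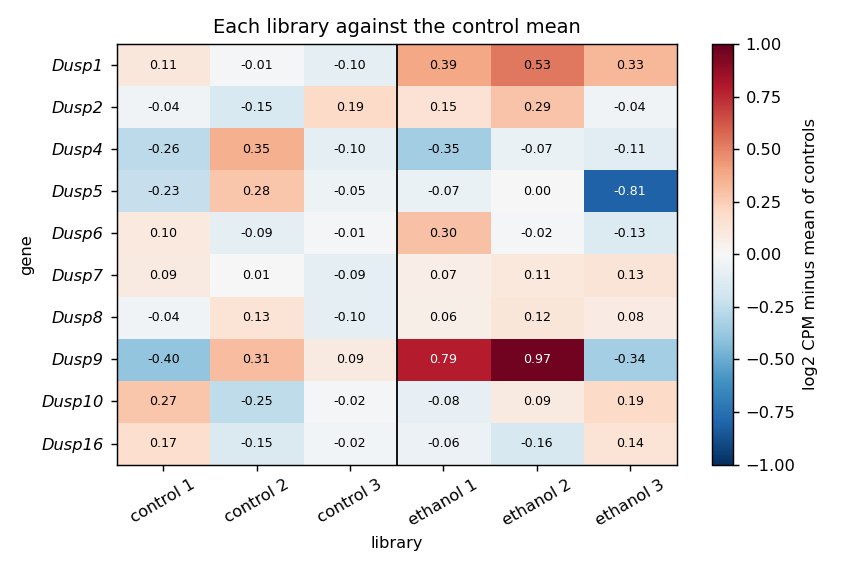
Log2 CPM of each phosphatase in each library minus the mean of the 3 control libraries, printed in each cell and coloured from blue (lower) to red (higher). Dusp1 was at 0.39, 0.53 and 0.33 in the ethanol libraries, while Dusp5 and Dusp9 differed between the ethanol libraries, down to -0.81 for Dusp5 in ethanol 3 and up to 0.97 for Dusp9 in ethanol 2.

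The spread between libraries set how small a difference could be seen for each gene. The biological coefficient of variation estimated by edgeR was lowest for Dusp7 (7.11%) and Dusp8 (7.41%), was 8.92% for Dusp1, and was 20.8% for Dusp5 and 30.03% for Dusp9, against a median of 11.1% over all genes tested. The upper limit of the interval lay below the Dusp1 estimate of 0.42 for 6 of the other 9 genes, those of Dusp4, Dusp5, Dusp6, Dusp7, Dusp8 and Dusp16. The interval of Dusp1 itself, 0.22 to 0.61, overlapped the intervals of all of these genes but Dusp4. For Dusp2, Dusp9 and Dusp10, a difference as large as that of Dusp1 lay within the interval. Whether Dusp1 differed from any other member in its response was not tested.

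The gene positions are those of Rnor_6.0, the build on which the reads were counted. On the plus strand lie Dusp2 on chromosome 3 from 119776925 to 119779110, Dusp5 on chromosome 1 from 274245184 to 274258595, Dusp6 on chromosome 7 from 41475163 to 41479393, Dusp7 on chromosome 8 from 115069095 to 115076130 and Dusp10 on chromosome 13 from 104284660 to 104321455. On the minus strand lie Dusp4 on chromosome 16 from 61080767 to 61090973, Dusp8 on chromosome 1 from 215030429 to 215043111, Dusp9 on chromosome X from 157168143 to 157172068 and Dusp16 on chromosome 4 from 168470141 to 168551346. None of the 10 genes shared exonic bases with another annotated gene on either strand, so overlapping genes took no reads from these counts.

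The substrates and upstream kinases of the family were then compared between the groups. Mapk7 and the upstream kinase Map2k3 had no counted reads in any library and were not tested. Multi-mapping reads and reads shared between genes were left out of the counts, so an empty count does not show that a gene was silent. The part of such reads in the empty counts was not tested. Of 12 MAP kinases tested, 0 had an adjusted p below 0.2 and 0 had an unadjusted p below 0.05 in either direction, where 4.15% of all genes had one, so that in lists of this length 0 is close to the background. The median log2 fold change was 0.05. The smallest p was that of Mapk13 (p38 delta), a low-level transcript with 0.413, 0.563 and 0.583 CPM in controls and 0.0935, 0.0932 and 0.517 CPM after ethanol (unadjusted p = 0.0966, edgeR). The study took up Mapk13 from these libraries as lower after ethanol, and reported a decrease by quantitative RT-PCR. Ethanol 3 stood with the controls for Mapk13. Without ethanol 3 the log2 fold change went from -1.12 to -2.45 and passed the threshold (adjusted p = 0.106, edgeR), in a fit that called 0.452% of the genes. The choroid plexus markers were likewise higher in ethanol 3 than in ethanol 1 and 2, and their part in the Mapk13 values was not tested. Of 9 upstream kinases (RAF and MAP kinase kinases), 0 had an unadjusted p below 0.05, and Map2k7, which activates JNK, had the smallest p, with a log2 fold change of -0.07 (unadjusted p = 0.255, edgeR). Its groups did not overlap, at 33.4, 33.2 and 31.853 CPM in controls and 30.004, 31.7 and 31.849 CPM after ethanol. Control 3 and ethanol 3 were thus nearly equal. Map2k7 was 1 of the 9 with such groups, where 8.85% of all genes had them. Among 8 further MAP kinase phosphatases of other classes and 17 atypical dual-specificity phosphatases, which lack the kinase-binding domain, 0 had an unadjusted p below 0.05 (4.15% of all genes), and the medians were 0.06 and -0.01. The atypical Dusp11 and Dusp21 also had no counted reads and were not tested. Ppp2ca, listed with the phosphatases of other classes, did not pass the filter on low counts and was not tested. In these lists the smallest p belonged to Ppm1a (log2 fold change 0.08) and Dusp14 (log2 fold change 0.19, unadjusted p = 0.0677, edgeR). Dusp14, as 1 of the 17, had groups that did not overlap (8.85% of all genes). It was at 6.54, 6.77 and 6.61 CPM in controls and 7.10, 7.82 and 7.87 CPM after ethanol.

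ERK feedback and immediate-early genes are those that ERK signaling and neuronal activity induce within minutes to hours, as they do Dusp1. Of 34 such genes tested, 0 passed the adjusted threshold, while 7 had an unadjusted p below 0.05 in the higher direction, where 1.57% of all genes had one, and 1 in the lower direction, where 2.58% had one (edgeR). The groups did not overlap for 5 genes higher and 2 lower after ethanol (3.65% and 5.19% of all genes). The median log2 fold change of the list was 0.11. The list was chosen with earlier results of these data known, so these counts are not independent evidence. The summed level of the list was 1260, 1331 and 1270 CPM in controls and 1476, 1482 and 1155 CPM after ethanol, so that ethanol 3 lay below every control. Pallial neuron markers were likewise lower in ethanol 3 (485 CPM) than in ethanol 1 and 2 (775 and 1016 CPM). In controls 1, 2 and 3 they were at 483, 885 and 640 CPM, so control 1 was as low as ethanol 3. The part of pallial neurons in the list sums was not tested. The genes named next were taken by p among those whose groups did not overlap. Nptx2, a secreted synaptic protein, was at 28.6, 35.0 and 31.5 CPM in controls and 40.7, 44.0 and 38.8 CPM after ethanol. Egr1, an activity-dependent transcription factor, was at 56.4, 51.5 and 45.1 CPM in controls and 69.6, 59.4 and 64.3 CPM after ethanol, and Btg2, an early growth-arrest gene, at 20.8, 26.0 and 20.9 CPM and then 34.3, 29.4 and 26.5 CPM. Ethanol libraries were above control libraries for these 3 genes. Spry2, a feedback inhibitor of receptor signaling to ERK, went the other way, with 55.9, 54.7 and 64.3 CPM in controls and 53.2, 44.5 and 46.8 CPM after ethanol. Like Dusp1, Nptx2 was among the genes the study took up from these libraries, and the study reported a rise of Nptx2 by quantitative RT-PCR. Adjusted p was 0.85 for Nptx2 and 1.0 for Egr1, Btg2 and Spry2 in edgeR's quasi-likelihood test. Nptx2 passed the threshold, as Dusp1 did, with DESeq2 (adjusted p = 0.133) and edgeR's likelihood ratio test (adjusted p = 0.155), and the other 3 did not.

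Glucocorticoid-response genes formed the list with the larger share of low p-values. Of 18 tested, 0 passed the adjusted threshold, 13 had an unadjusted p below 0.05 in the higher direction (1.57% of all genes) and 0 in the lower direction (edgeR), and the median log2 fold change was 0.39. The groups did not overlap for 10 of these genes, all higher after ethanol, where 3.65% of all genes were higher without overlap. The list was chosen with earlier results of these data known, so these counts are not independent evidence. The list shares Errfi1 with the ERK feedback list and does not hold Dusp1. Klf9, a transcription factor, was at 61.5, 69.2 and 57.9 CPM in controls and 78.3, 96.8 and 91.1 CPM after ethanol. Fkbp5, a chaperone of the glucocorticoid receptor, was at 51.2, 58.5 and 60.3 CPM and then 68.4, 71.5 and 75.1 CPM. Ddit4, an inhibitor of growth signaling, was at 61.1, 60.6 and 56.8 CPM in controls and 67.8, 84.8 and 90.5 CPM after ethanol. Pdk4, a switch of pyruvate use, was at 4.11, 3.60 and 4.19 CPM and then 4.77, 10.01 and 8.80 CPM. These 4 genes passed the threshold with DESeq2 (adjusted p = 0.00928 for Klf9, 0.125 for Fkbp5, 0.0767 for Ddit4 and 0.0448 for Pdk4) and with edgeR's likelihood ratio test (adjusted p = 0.0142, 0.108, 0.0796 and 0.107). Among the ethanol libraries, the lowest value was in ethanol 1 for Klf9, Fkbp5, Ddit4 and Pdk4, in ethanol 3 for Dusp1, Nptx2 and Btg2, and in ethanol 2 for Egr1 and Spry2. The highest value was in ethanol 2 for Dusp1, Nptx2, Klf9 and Pdk4, in ethanol 1 for Egr1, Btg2 and Spry2, and in ethanol 3 for Fkbp5 and Ddit4. With 3 libraries per group, no test of this order was made.

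**Figure D4:**
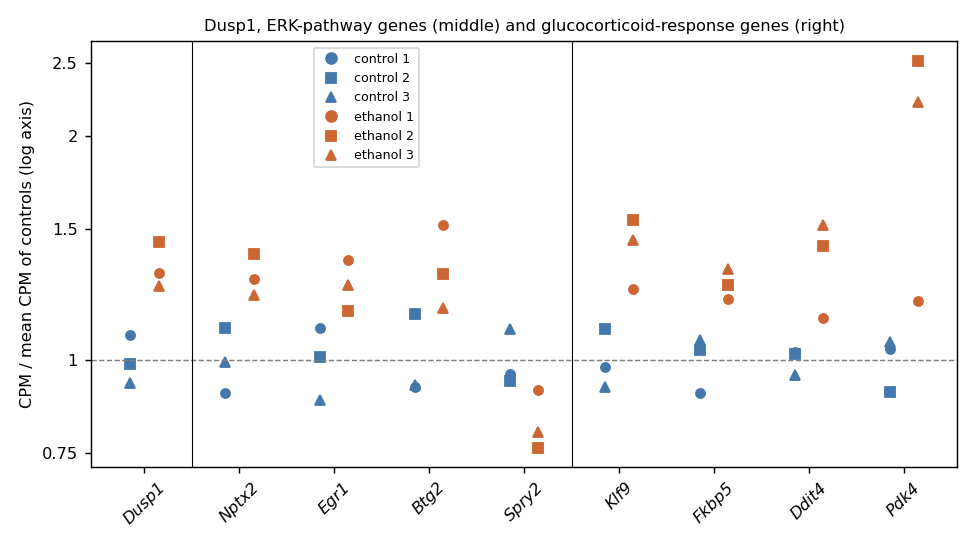
CPM of each library divided by the mean CPM of the control libraries, on a log axis, for Dusp1 (left), the named ERK feedback and immediate-early genes (middle) and the named glucocorticoid-response genes (right). Blue points are control and orange points ethanol libraries, with 1 marker shape for each replicate number. For Pdk4 and Ddit4 ethanol 1 lay closest to the controls. The 3 ethanol values of Dusp1 lay close together, and so did those of Nptx2 and Fkbp5.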

How the data were processed

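Single-end reads of 100 nt from strand-specific libraries were quality-trimmed by the authors, aligned with STAR 2.7.0f and counted with featureCounts 1.6.3. The authors deposited raw counts per gene, which per the file headers were summed over the exons of the Rnor_6.0 annotation with the reverse-strand setting (2), leaving out multi-mapping reads and reads shared between genes. Reads from near-identical sequence are therefore missing.

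Symbols were matched to 29322 of 38445 identifiers through a RefSeq gene table (GRCr8), and positions are those of the counting annotation. The test was run with edgeR 4.0.16 (R 4.3.3): filterByExpr (minimum of 10 counts, 15 in total), which left 18141 genes, TMM scaling, a quasi-likelihood F test over all genes, and Benjamini-Hochberg adjustment with the study's threshold of 0.2. The fit was tested on simulated data. Standard errors are the log2 fold change divided by the square root of F. Log2 CPM carried a prior count of 2. The exact permutation test used 20 label assignments. Alternatives were DESeq2 1.42.0, limma-voom 3.58.1, edgeR's likelihood ratio test, other scaling, no filter, a replicate block and leaving out each library. The labels do not say that libraries were prepared apart, so p-values measure the spread between these pools.

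Named genes were the 10 members and, of each list, up to 4 genes with the smallest unadjusted p below 0.05 whose groups did not overlap, or otherwise the gene with the smallest p. The members and lists were chosen with earlier results of these data known.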

Additional observations from a re-analysis of the deposited data

How the results depend on the processing

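No alternative brought more than 1 phosphatase past the threshold. DESeq2 and edgeR's likelihood ratio test each called 1 member, Dusp1, with 74 and 77 genes called over the whole table and 7 and 7 over the pathway lists, against 0 in each case with the quasi-likelihood test. Leaving out 1 library at a time, the quasi-likelihood test called from 0 to 83 genes over the whole table, 0 to 0 members and 0 to 3 genes of the pathway lists. The highest counts, 83 and 3, came without ethanol 3, and 4 and 2 were called without ethanol 1. Limma-voom, library size alone, DESeq2 size factors and no filter on low counts called 0 genes over the whole table, the members and the lists. Library size alone changed the split of genes with an unadjusted p below 0.05 from 285 higher and 468 lower to 194 higher and 625 lower.

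The replicate numbers 1 to 3 are shared by both groups but come from different rats. Deviations of same-numbered libraries over 14241 genes correlated by 0.0264, 0.388 and 0.211, so not every pair exceeded 0.1, and control 1 correlated best with ethanol 3 (0.305). With the replicate number as a block, 0 genes, 0 members and 0 genes of the lists were called, and the log2 fold change of Dusp1 was 0.42 (edgeR's adjusted p = 0.634).

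The log2 fold change of Dusp1 lay between 0.36 and 0.47 with a library left out, with adjusted p from 0.23 to 1.0. Direction changed in 6 leave-one-out fits: Dusp4 ranged from -0.33 to 0.0058, Dusp6 from -0.078 to 0.14, Dusp10 from -0.063 to 0.20 and Dusp16 from -0.11 to 0.054, and the cause was not tested. The changes came without control 2 (Dusp4, Dusp10), ethanol 1 (Dusp6), ethanol 3 (Dusp10), control 1 and ethanol 2 (both Dusp16). Dusp2 and Dusp9 had the fewest reads, and what depth adds to their spread was not tested.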

Other observations

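The genes whose levels followed Dusp1 most closely over the 6 libraries were Herpud2, Rac1, Atg5, Zfp394 and Oip5-as1, with Pearson correlations of log2 CPM from 0.98 to 0.989 among 14759 genes of at least 1 CPM on average. These correlations rest on 6 points that share the same pools, and they are given as a description. The size of the difference was much smaller than for Dusp1: Rac1, a small GTPase of the actin cytoskeleton, was at 434, 431 and 428 CPM in controls and 445, 448 and 439 CPM after ethanol, a log2 fold change of 0.04. Within the family, Dusp7 was the most like Dusp1, with a correlation of 0.807, and Dusp4 the least, with -0.41. Dusp7 had rank 326 among the 14759 genes. Group means were not removed, so these correlations include the difference between the groups.

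Dusp9 is a low-level transcript in these libraries, and its value depended on which library was left out. Without ethanol 3 its log2 fold change was 0.87, with an unadjusted p of 0.00782 and an adjusted p of 0.386 in edgeR's test, against 0.55 and an unadjusted p of 0.157 with all 6 libraries. In that fit 822 genes were higher and 807 lower with an unadjusted p below 0.05 (edgeR), against 285 and 468 with all 6 libraries. The log2 fold change of Dusp9 was 0.31 without ethanol 2 (unadjusted p = 0.444, edgeR) and 0.37 without control 1 (unadjusted p = 0.374, edgeR). Dusp8, the most abundant member, had an unadjusted p of 0.0335 without control 2 and 0.262 with all libraries (edgeR).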
